A study of Arabidopsis thaliana with 15 samples.

Results

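Middle precursors of the stomatal lineage were compared with the whole epidermis of Arabidopsis thaliana seedlings on 6 of the 15 arrays of the series, 3 for each population. The middle precursors were chosen by their reporter, nuclear GFP under the MUTE promoter (MUTEp::nucGFP), and hold late meristemoids and young guard mother cells. Their reference was sorted with a membrane-bound YFP under the ML1 promoter (ML1p::YFP-RCI2A), which marks the epidermis as a whole and therefore takes in cells of the lineage too. The other 9 arrays, also 3 each, hold early precursors (SPCHp::SPCH-YFP), late precursors (FAMAp::GFP-FAMA) and mature guard cells (the enhancer trap E1728::GFP). All 5 lines were in Col. Seedlings were 14 days old and had grown on half-strength MS medium with 1% sucrose at 25 °C under 16 h of light and 8 h of darkness. Protoplasts from aerial tissue were released over 2 h and sorted, with 2000 to 20000 cells per replicate. A separate reporter line was used for every population, and effects of the line and of the cell population cannot be told apart. SPCH-YFP and GFP-FAMA carry the coding sequence of the gene they report and can add to its signal in the early and late sorts, whereas neither line compared here carries a lineage gene's coding sequence by its label.

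Stomata form through a short lineage in which the related basic helix-loop-helix factors SPCH, MUTE and FAMA act in turn. SPCH starts the asymmetric divisions, MUTE ends them and turns a meristemoid into a guard mother cell, and FAMA closes the symmetric division and drives guard cell identity. Cells at the MUTE stage are small, leave stem-cell-like division behind and prepare for a single symmetric division, surrounded by larger pavement cells.

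Levels are log2 expression values as deposited, and differences are middle precursors minus epidermis, with the standard error (SE) from the limma fit of all 15 arrays. A call is an adjusted p below 0.05 over all 20956 probe sets. Group means at or below 2.68, the highest array median, are treated as near background, and folds set against them are lower bounds, written "at least". Correlations between arrays of the 20956 values were 0.974 to 0.982 within the middle precursors, 0.948 to 0.962 within the epidermis and 0.902 to 0.934 between them. Epidermis replicate 3 was the array least like the other 2 epidermis arrays. The early precursors were the most variable group, with a residual SD of 0.658 against 0.282 in middle precursors and 0.383 in the epidermis, and they enter the shared estimate of spread. The labels do not say whether replicates were separate cultures, so p-values measure the spread between these arrays.

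In all, 1157 probe sets differed between middle precursors and epidermis, 5.52% of those tested. Of these, 678 (3.24%) were higher and 479 (2.29%) lower in middle precursors, and all but 2 of the rises (3.23% of probe sets) and every fall had no overlap between the 6 arrays. The median difference was 1.49 among the rises and -1.36 among the falls, and 573 rises and 322 falls reached 2-fold. Rises of at least 8-fold numbered 32, against 3 such falls. The shares of 3.24% higher and 2.29% lower are those to set beside the list counts below. The excess of rises over falls depended on scaling, since 524 rises and 541 falls were called after quantile normalization and 519 rises and 652 falls after cyclic loess. Leaving out any 1 middle array brought the count to between 502 and 658, and leaving out epidermis replicate 3 brought it to 627. In sorted bulk samples, fewer cells of a type and less RNA per cell cannot be told apart.

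**Figure D1:**
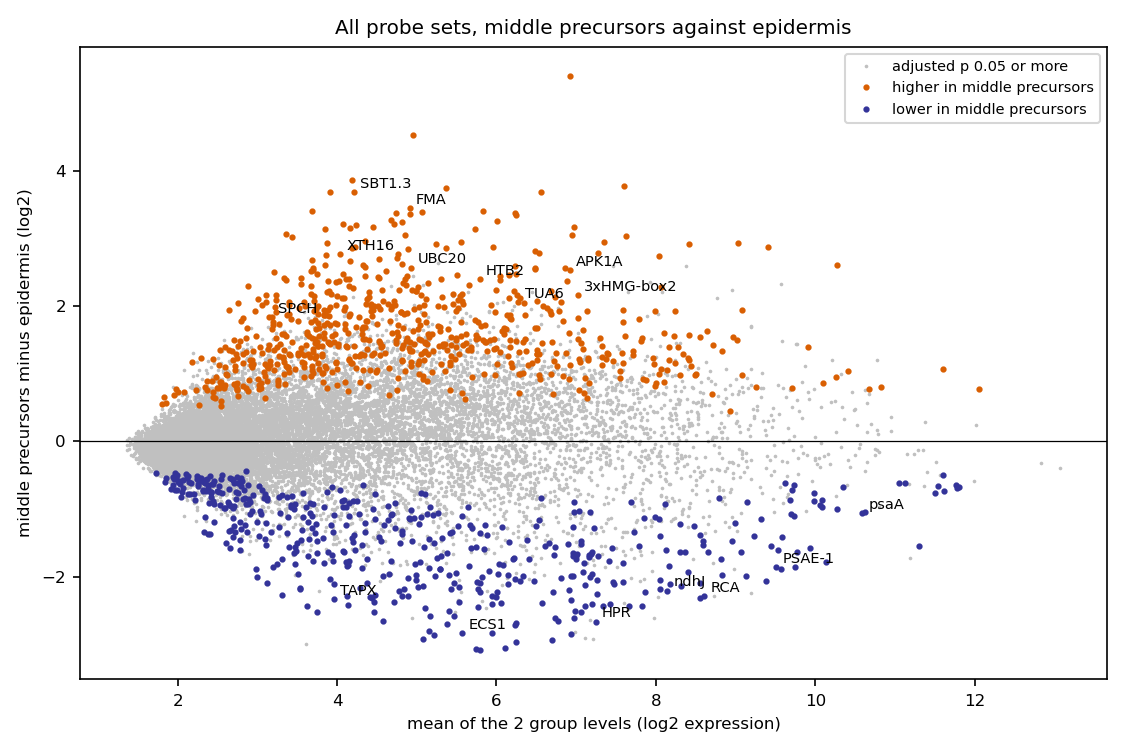
All 20956 probe sets, with the mean of both group levels (log2) on the x axis and middle precursors minus epidermis (log2) on the y axis. Coloured points are the 678 rises and 479 falls, and labels mark genes named in the text. Rises extend to 5.40 and falls to -3.09.

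The lineage regulators FMA, SPCH, SOL1 and MUTE were higher in middle precursors. Of 7 measured regulators, those 4 passed the test and 0 were lower, with a median difference of 0.99, beside 3.24% of probe sets higher, 348 rises and 235 falls among 12668 genes, and a median of -0.07 over them. FMA (AT3G24140, the gene symbol for FAMA) had levels of 6.50, 6.47 and 6.93 in middle precursors, against 3.38, 3.15 and 3.02 in the epidermis. All 3 middle arrays lay more than 3 log2 units above the epidermis arrays, a 10.9-fold difference (3.45 ± 0.23, SE, limma adjusted p = 9.19e-06). Its level in middle precursors was also above that of early precursors (2.32, 1.90 and 2.66) and below that of late precursors (9.87, 10.08 and 10.39), with adjusted p = 7.77e-07 and 1.72e-05 in the same limma fit. The transgene of the late precursors carries FMA and can add to their level. Mature guard cells, at 6.91, 7.51 and 7.29, did not pass the test against middle precursors (difference -0.60 ± 0.23, limma adjusted p = 0.32).

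SPCH (AT5G53210) had levels of 3.52, 4.004 and 4.77 in middle precursors, against 2.38, 2.04 and 2.38 in the epidermis. The groups did not overlap, and the middle mean was at least 2.68-fold higher (limma adjusted p = 0.00166). Early precursors, whose transgene carries SPCH, stood far above at 9.19, 9.15 and 8.998, so the middle level lay between early precursors and epidermis. SOL1 (AT3G22760), a CXC-domain DNA-binding protein that acts on cell fate transitions in this lineage, had 4.42, 3.62 and 4.10 in middle precursors, against 2.34, 2.55 and 2.12 in the epidermis. Its rise was at least 2.6-fold (limma adjusted p = 0.00138), and early precursors had a mean of 4.03 while late precursors and guard cells had means of 2.11 and 2.06.

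MUTE itself (AT3G06120), whose promoter drove the reporter, was near background in both groups. Its levels were 2.41, 1.92 and 2.78 in middle precursors, against 1.49, 1.54 and 1.76 in the epidermis. Every middle array was above every epidermis array and the test was passed (difference 0.77 ± 0.20, limma adjusted p = 0.0386), but no fold is given, and the call was lost in 7 of the 15 alternative settings that tested it. Its mean was 2.37 in middle precursors, 1.69 in early precursors, 1.54 in late precursors, 1.66 in guard cells and 1.60 in the epidermis, all below the near-background bound, so no order is read from them.

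The other 3 regulators did not pass the test. ATBRXL2, a BREVIS RADIX-like protein of the polarity complex of dividing lineage cells, had 3.08, 3.30 and 3.54 in middle precursors, against 1.96, 2.97 and 2.03 in the epidermis (adjusted p = 0.246 in limma). TSO1, a relative of SOL1, had a difference of 0.21 and was near background in both groups. STOMAGEN, a secreted peptide made in mesophyll that promotes stomatal formation, had a difference of -0.56 (limma adjusted p = 0.121) with middle arrays at 2.12, 2.18 and 2.09 and epidermis arrays at 2.34, 3.21 and 2.53. Neither measured gene of mature guard cell function passed the test. CHX20, which exchanges cations for protons in guard cells, had 6.42, 8.11 and 6.81 in middle precursors, against 6.41, 6.68 and 6.52 in the epidermis, with overlapping groups (difference 0.58 ± 0.44, limma adjusted p = 0.5). Its means were 10.03 in late precursors and 9.66 in guard cells, both above middle precursors (adjusted p = 0.00324 and 0.0145). The kinase BLUS1 (AT4G14480), which acts in blue-light opening of stomata, was near background in both groups (difference 0.16).

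**Figure D2:**
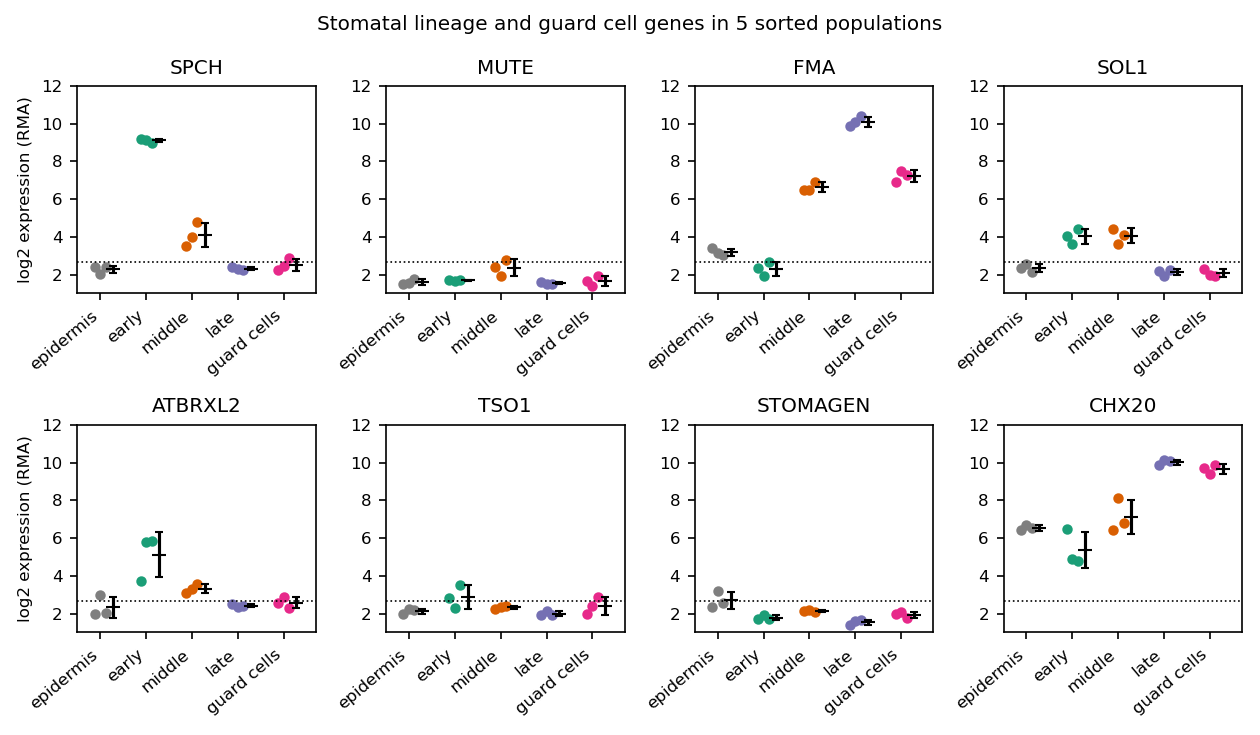
Log2 expression of 8 lineage and guard cell genes in 5 sorted populations, from epidermis through the stages to guard cells. Points are arrays, bars mean ± SD (n = 3), and the dotted line is the near-background bound of 2.68. FMA is highest in late precursors and SPCH in early precursors, the sorts whose transgenes carry these genes. CHX20 is high in late precursors and guard cells.

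Among basic helix-loop-helix factors as a family, 4 of 19 measured members were higher and 0 lower, with FMA, SPCH and MUTE making up 3 of the 4. The fourth was BIM1, a partner of brassinosteroid-responsive factors, at 4.29, 3.85 and 4.44 in middle precursors, against 2.89, 3.11 and 2.69 in the epidermis (2.46-fold, limma adjusted p = 0.031). The BIM1 call was lost in 4 of 16 alternative settings.

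In mitosis and chromosome segregation, 2 of 17 measured genes were higher and 0 lower, with a list median of 0.36, beside 3.24% of all probe sets higher. The 3xHMG-box2 protein (AT4G23800), which binds mitotic chromosomes, had 8.08, 7.90 and 8.32 in middle precursors, against 5.74, 6.06 and 6.01 in the epidermis. Its 4.49-fold rise left no overlap (limma adjusted p = 0.00153), and it was lower than in early precursors, whose mean was 9.32 (adjusted p = 0.0266). BUB3.1, of the spindle assembly checkpoint, had 5.91, 5.98 and 5.64 in middle precursors, against 3.99, 4.23 and 4.99 in the epidermis (2.72-fold, limma adjusted p = 0.0037). It too was lower than in early precursors, whose mean was 6.74 (limma adjusted p = 0.032). Of the 15 genes that missed the threshold, TOPII (DNA topoisomerase II), BUBR1 and the Aurora kinases AUR1 and AUR2 had differences of 1.91, 1.92, 1.33 and 1.29, with adjusted p of 0.0691, 0.15, 0.203 and 0.167. Across the whole list 13 differences were positive and 4 negative, and 8 of the 17 genes were near background in both groups. All middle arrays lay above all epidermis arrays for 7 genes (14.6% of all probe sets) and below for 2 (16.2%).

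In cytokinesis and microtubule organisation, 1 of 24 genes was higher and 0 lower as deposited, a share near the 3.24% of all probe sets. After quantile or cyclic loess scaling 3 were higher and 0 lower, beside 524 and 519 rises over all 20956 probe sets. As deposited, 8 had all middle arrays above all epidermis arrays (14.6% of all probe sets did) and 3 below (16.2%). Of the 24, 11 were near background in both groups. The gene called as deposited was KINESIN-12B (AT3G23670), a kinesin of the phragmoplast midline. It had 4.93, 4.82 and 5.25 in middle precursors, against 3.07, 2.68 and 3.18 in the epidermis. The groups were 4.06-fold apart (limma adjusted p = 0.000125), and the early precursor mean of 5.08 differed from the middle one by only -0.08 ± 0.19 (middle minus early). Of 7 tubulin genes, 2 were higher and 0 lower. The beta-tubulin TUB7 had 4.99, 5.02 and 5.02 in middle precursors, against 2.99, 2.78 and 2.60 in the epidermis (4.65-fold, limma adjusted p = 0.0015). The alpha-tubulin TUA6 had 7.28, 7.31 and 7.33 in middle precursors, against 4.85, 5.72 and 5.16 in the epidermis (4.18-fold, limma adjusted p = 0.00549). Early precursor means were 5.90 for TUB7 and 7.23 for TUA6, neither passing against middle precursors. The other 5 tubulins ranged from -0.61 to 0.16, with overlapping groups for each. Tubulin genes are close relatives, and whether their probe sets share signal was not tested.

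DNA replication and histone genes gave 5 rises and 0 falls among 15 measured, with a median of 0.23, and 4 of the 5 were histone H2B genes. HTB2 (AT5G22880) had 7.32, 6.69 and 6.95 in middle precursors, against 4.74, 4.75 and 4.29 in the epidermis. This was 5.26-fold higher (limma adjusted p = 0.00219), and middle precursors were also above early precursors (mean 5.32) and late precursors (mean 4.70), with adjusted p of 0.0136 and 0.00345. HTB11 and HTB1 rose 2.81-fold and 2.63-fold, and HTB4 rose 1.99-fold (limma adjusted p = 0.0183, 0.0221 and 0.0233). The HTB11 and HTB1 calls were lost in 4 and 5 of 16 alternative settings. The H2B genes are alike in sequence and may share signal. PRL (PROLIFERA), a subunit of the replication licensing complex, had 2.89, 3.30 and 3.72 in middle precursors, against 1.81, 2.27 and 2.21 in the epidermis, at least 1.55-fold higher (limma adjusted p = 0.00926). The polymerase subunits POLA3, POLD3 and ICU2 were near background in both groups, with differences of 0.12, 0.01 and 0.01. DNA repair and recombination had 0 calls among 15 genes in limma, and 1 had an unadjusted p under 0.05. Of these 15, 12 were near background in both groups, which limits what the list can show.

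Leaving out an array left 2 or 3 mitosis genes and 2 tubulins called, whereas the count for replication and histones dropped to 2 without middle replicate 1, without middle replicate 3 or without epidermis replicate 1.

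Among 10 subtilases 2 were higher and 0 lower, with a median of -0.15, beside 3.24% of all probe sets higher. SBT1.3 (AT5G51750), a secreted subtilisin-like protease, had 6.35, 5.45 and 6.36 in middle precursors, against 2.06, 2.44 and 2.62 in the epidermis. It was at least 10.4-fold higher (fitted difference 3.68 ± 0.40, SE, limma adjusted p = 0.000359) and near background in every epidermis array. XTH16 (AT3G23730), a xyloglucan endotransglucosylase/hydrolase that remodels wall xyloglucan, had 5.40, 5.71 and 5.17 in middle precursors, against 2.75, 2.41 and 2.81 in the epidermis (at least 6.73-fold, limma adjusted p = 0.0012). Means in early precursors were 5.31 for SBT1.3 and 5.07 for XTH16, neither passing against middle precursors, and those in late precursors were lower (3.74 and 3.30), with limma adjusted p = 0.00703 for each between middle and late precursors.

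Across 29 expansins and XTH genes, XTH16 among them, 3 were higher and 1 lower, with a median of -0.06. The shares over all probe sets, for these and the pectin and peptide lists, were 3.24% higher and 2.29% lower. The expansins EXPA9 and EXPA15, which loosen walls, rose 3.35-fold and 2.84-fold (limma adjusted p = 0.0234 and 0.0214). Their calls were lost in 4 and 5 of 16 alternative settings, both alternative scalings among those for EXPA15. EXPA18 was lower, at 2.18, 2.22 and 1.99 in middle precursors, against 3.66, 2.57 and 3.54 in the epidermis. The EXPA18 call was lost in 3 of the 15 settings that tested it. Among 14 pectin and cellulose genes 1 was higher and 1 lower, with a median of -0.21. GAUT15, a galacturonosyltransferase-like protein of pectin synthesis, had 3.76, 4.33 and 3.92 in middle precursors, against 2.32, 2.64 and 2.45 in the epidermis (at least 2.51-fold, limma adjusted p = 0.00809). EXO, an extracellular protein tied to brassinosteroid-dependent growth, had 5.07, 5.48 and 5.44 in middle precursors, against 3.41, 3.03 and 2.75 in the epidermis (4.82-fold, limma adjusted p = 0.00218). The early precursor mean of EXO was 5.89, not passing against middle precursors (limma adjusted p = 0.269). RALFL34, of the RALF family of secreted peptides, was the 1 called gene among 19 small signalling peptides, 3.86-fold higher (limma adjusted p = 0.00947).

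Among ubiquitin-conjugating enzymes and ligases, 3 of 21 were higher and 0 lower. UBC20 (AT1G50490), an E2 enzyme of the class that works with the anaphase-promoting complex, had 5.87, 6.18 and 6.59 in middle precursors, against 3.10, 3.80 and 4.05 in the epidermis. Its level was 5.93-fold higher (limma adjusted p = 0.000534) and lower than in early precursors, whose mean was 7.56. UBC22 and UBC27 rose 3.29-fold and 2.66-fold, and those calls were lost in 10 and 9 of 16 alternative settings.

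APK1A (AT1G07570), a receptor-like cytoplasmic kinase, had 8.13, 8.20 and 8.24 in middle precursors, against 6.01, 6.01 and 4.96 in the epidermis, 5.79-fold higher (limma adjusted p = 0.000625). Late precursors and guard cells had means close to the middle one for this gene, 7.83 and 7.99, and early precursors had 5.27. Of 23 calmodulin-like and IQD genes 2 were higher and 1 lower, with a median of 0.04. The shares over all probe sets, for this and the other lists here, were 3.24% higher and 2.29% lower. The calmodulin-binding protein iqd21 and the calmodulin-like CML23 rose 5.47-fold and at least 2.56-fold (limma adjusted p = 0.0181 and 0.000434), and CML42 fell 2.38-fold (limma adjusted p = 0.0386), a call lost in 9 of 16 settings. The call of iqd21 was lost in 5 of 16 settings, and its mean was 7.20 in early precursors, against 7.38 in middle precursors. ZAP1, a WRKY transcription factor, had 8.06, 7.44 and 7.90 in middle precursors, against 6.27, 5.58 and 4.87 in the epidermis (4.67-fold, limma adjusted p = 0.00116). ZAP1 means were 8.43 in early precursors, 7.18 in late precursors and 7.08 in guard cells, none passing against middle precursors. Of 19 bZIP factors 1 was higher and 1 lower. The bZIP factor bZIP29 (AT4G38900) rose 3.54-fold (limma adjusted p = 0.00242). VPS2.2, an ESCRT-III-related protein, rose at least 3.85-fold with adjusted p = 0.0468 in limma, a call lost in 8 of 16 settings. For VPS2.2 the early precursor mean was 6.36, not passing against middle precursors (limma adjusted p = 0.063). VPS46.2, of the same ESCRT list of 14 genes, had 6.38, 6.61 and 6.58 in middle precursors, against 7.26, 7.46 and 7.55 in the epidermis, 1.86-fold lower (limma adjusted p = 0.00276), a call lost in 1 of 16 settings. UGT78D1, a flavonol rhamnosyltransferase, had 8.47, 7.85 and 6.44 in middle precursors, against 5.81, 5.92 and 5.02 in the epidermis, and its call was lost in 10 of 16 settings. Of 52 glycosyltransferase genes it was the 1 rise, and UGT71B6 was the 1 fall (1.71-fold, limma adjusted p = 0.0142), a call lost in 3 of 16 settings. In that list 42 of 52 differences were negative, and 0 rises and 2 falls were called after quantile or cyclic loess scaling.

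**Figure D3:**
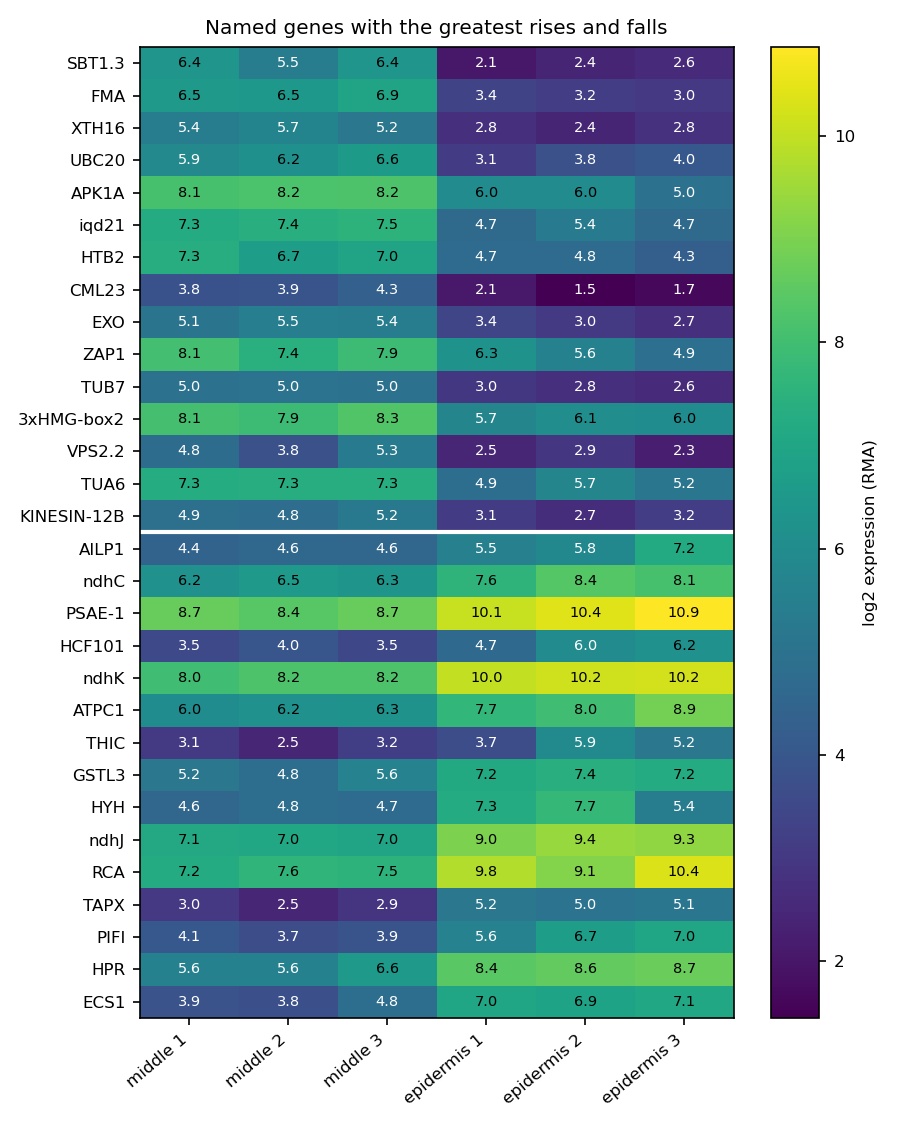
Log2 expression of the 15 rises (above the white line) and 15 falls with the greatest differences among genes with a symbol, in the 3 middle precursor arrays (left) and the 3 epidermis arrays (right). Cells carry the rounded level. No gene has an overlap between the groups, which the rule for naming required.

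Genes of photosynthesis were lower in middle precursors. The chloroplast genome carries part of each photosynthetic complex, and the nucleus supplies the rest. Of 44 plastid-encoded genes for photosystems I and II, the NDH complex, cytochrome b6f and ATP synthase, 27 were lower and 0 higher, with a median of -0.87, against 2.29% of all probe sets. All 44 had a negative difference, as deposited and after quantile or cyclic loess scaling, but the calls numbered 14 after quantile normalization and 27 after cyclic loess.

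The NDH complex, which runs cyclic electron flow around photosystem I, gave 9 falls among 10 genes and a median of -1.28. Its gene ndhJ had 7.13, 7.04 and 6.95 in middle precursors, against 8.997, 9.43 and 9.32 in the epidermis, a 4.62-fold difference with no overlap (limma adjusted p = 0.000746). For ndhK the levels were 7.97, 8.23 and 8.23 in middle precursors, against 10.005, 10.17 and 10.21 in the epidermis (3.96-fold, limma adjusted p = 0.00434). For ndhC they were 6.20, 6.53 and 6.33 in middle precursors, against 7.56, 8.39 and 8.11 in the epidermis (3.17-fold, limma adjusted p = 0.0132). The NDH gene that missed was ndhF, near background in both groups. Leaving out 1 array took the 9 calls to between 3 and 8.

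Of 15 photosystem II genes 8 were lower, of 7 photosystem I and assembly genes 2 were lower, and of 12 cytochrome b6f and ATP synthase genes 8 were lower. The photosystem I core gene psaA had 10.03, 10.17 and 9.995 in middle precursors, against 11.06, 11.23 and 11.07 in the epidermis (2.08-fold, limma adjusted p = 0.00218). The photosystem II gene psbB had 10.99, 11.44 and 11.31 in middle precursors, against 11.98, 11.95 and 12.04 in the epidermis (1.67-fold, limma adjusted p = 0.0164). For petD, of cytochrome b6f, the levels were 9.65, 9.85 and 9.82 in middle precursors, against 10.53, 10.82 and 10.95 in the epidermis (1.99-fold, limma adjusted p = 0.0135). These are high levels in both populations. Without epidermis replicate 3, 1 photosystem II gene and 0 cytochrome b6f and ATP synthase genes were called, and without middle replicate 1 it was 0 of each. After quantile normalization 1 photosystem II gene and 4 cytochrome b6f and ATP synthase genes were called, and after cyclic loess 7 and 8. The psbB call was lost in 4 of 16 settings, quantile normalization among them.

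Plastid genes for gene expression had a median closer to 0. Of 20 ribosomal protein, RNA polymerase and matK genes, 0 passed the limma test and 4 had an unadjusted p under 0.05, while all 20 differences were negative, with a median of -0.37, and 14 of 20 had all middle arrays below all epidermis arrays (16.2% of all probe sets did). The polymerase gene rpoA had 8.69, 8.70 and 8.84 in middle precursors, against 9.14, 9.14 and 9.33 in the epidermis (difference -0.46, adjusted p = 0.0734 in limma). After quantile normalization 1 of the 20 was called, and after cyclic loess 3. No test of photosynthesis genes against gene expression genes was run.

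Nuclear genes of photosynthesis gave 8 falls and 0 rises among 25, with a median of -1.39. PSAE-1, a photosystem I subunit, had 8.66, 8.40 and 8.69 in middle precursors, against 10.07, 10.40 and 10.86 in the epidermis (3.62-fold, limma adjusted p = 0.0326). ATPC1, the gamma subunit of the chloroplast ATP synthase, had 6.04, 6.22 and 6.26 in middle precursors, against 7.67, 7.97 and 8.91 in the epidermis (4.03-fold, limma adjusted p = 0.0215). The antenna protein LHCB4.1 had 7.92, 7.77 and 7.80 in middle precursors, against 9.06, 9.28 and 10.06 in the epidermis (3.11-fold, limma adjusted p = 0.0257). PIFI, a chloroplast protein linked to NDH-dependent electron flow, had 4.05, 3.69 and 3.91 in middle precursors, against 5.63, 6.72 and 7.03 in the epidermis (5.95-fold, limma adjusted p = 0.0381), and CURT1A (AT4G01150), which shapes thylakoid margins, had 5.39, 5.21 and 5.71 in middle precursors, against 7.02, 7.60 and 7.87 in the epidermis (4.17-fold, limma adjusted p = 0.021). Separately, PSAN had a large difference of -2.62 that did not pass (limma adjusted p = 0.0591), and ATPC2, a relative of ATPC1, had a positive difference of 1.28 (adjusted p = 0.131 in limma).

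Epidermis replicate 3 stood highest of the 3 epidermis arrays for 20 of these 25 nuclear genes. The mean log2 level over the 25 was 5.002, 4.95 and 5.20 in the middle arrays, against 5.57, 5.98 and 6.64 in the epidermis arrays, so the groups did not overlap. Leaving out replicate 3 left 2 of the 8 calls, and leaving out any 1 middle array left 1. Nuclear genes of photosystems and light-harvesting complexes, and RCA, were also the markers chosen for mesophyll. STOMAGEN, a peptide gene made in mesophyll, had all middle arrays below all epidermis arrays, by -0.56 in the mean. It did not pass the test, was near background in middle precursors and was highest in epidermis replicate 2. The part of epidermis replicate 3, or of mesophyll RNA, in the result was not tested. For the plastid NDH genes the same array mean was 7.15, 7.22 and 7.21 in middle precursors, against 8.25, 8.67 and 8.65 in the epidermis.

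Carbon fixation and photorespiration followed the same direction, with 2 of 4 genes lower and 0 higher. RCA, rubisco activase, had 7.24, 7.61 and 7.53 in middle precursors, against 9.77, 9.13 and 10.35 in the epidermis (4.89-fold, limma adjusted p = 0.046). HPR, hydroxypyruvate reductase of photorespiration, had 5.58, 5.60 and 6.56 in middle precursors, against 8.44, 8.60 and 8.69 in the epidermis (6.34-fold, limma adjusted p = 0.0478). PRK and SBPASE, both enzymes of the Calvin cycle, had differences of -2.24 and -2.03 that did not pass (limma adjusted p = 0.103 and 0.107). All 4 genes had every middle array below every epidermis array, as did 16.2% of all probe sets. Leaving out any 1 array left 0 or 1 of the 2 calls, and the calls of RCA and HPR were lost in 7 and 8 of 16 settings.

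In chlorophyll synthesis, with a median of -0.69 and beside 2.29% of all probe sets lower, 1 of 15 genes was lower and 0 higher. It was geranylgeranyl reductase (AT1G74470), at 8.58, 8.89 and 8.73 in middle precursors, against 10.04, 10.16 and 10.84 in the epidermis (3.05-fold, limma adjusted p = 0.025). HCF101, which inserts iron-sulphur clusters into photosystem I, fell 3.87-fold (limma adjusted p = 0.0199). The calls of AT1G74470 and HCF101 were each lost in 4 of 16 alternative settings.

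Chloroplast peroxide and thiol defence gave 4 falls and 0 rises among 11 genes. TAPX, the thylakoid ascorbate peroxidase, had 3.02, 2.48 and 2.89 in middle precursors, against 5.20, 5.04 and 5.13 in the epidermis, 5.03-fold lower (limma adjusted p = 0.00227), while its stromal counterpart SAPX had a difference of 0.26 with overlapping groups. TAPX means in early precursors, late precursors and guard cells were 2.89, 2.84 and 3.24, none passing against middle precursors. The sulfiredoxin SRX, the thioredoxin ATHM2 and the thioredoxin TRXF2 were lower by 2.86-fold, 3.01-fold and 2.49-fold (limma adjusted p = 0.0407, 0.0306 and 0.0239). The SRX call was lost in 8 of 16 settings and the ATHM2 call in 5. SRX and ATHM2 were at the same time higher in middle than in early precursors (means 4.53 and 3.69 there).

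**Figure D4:**
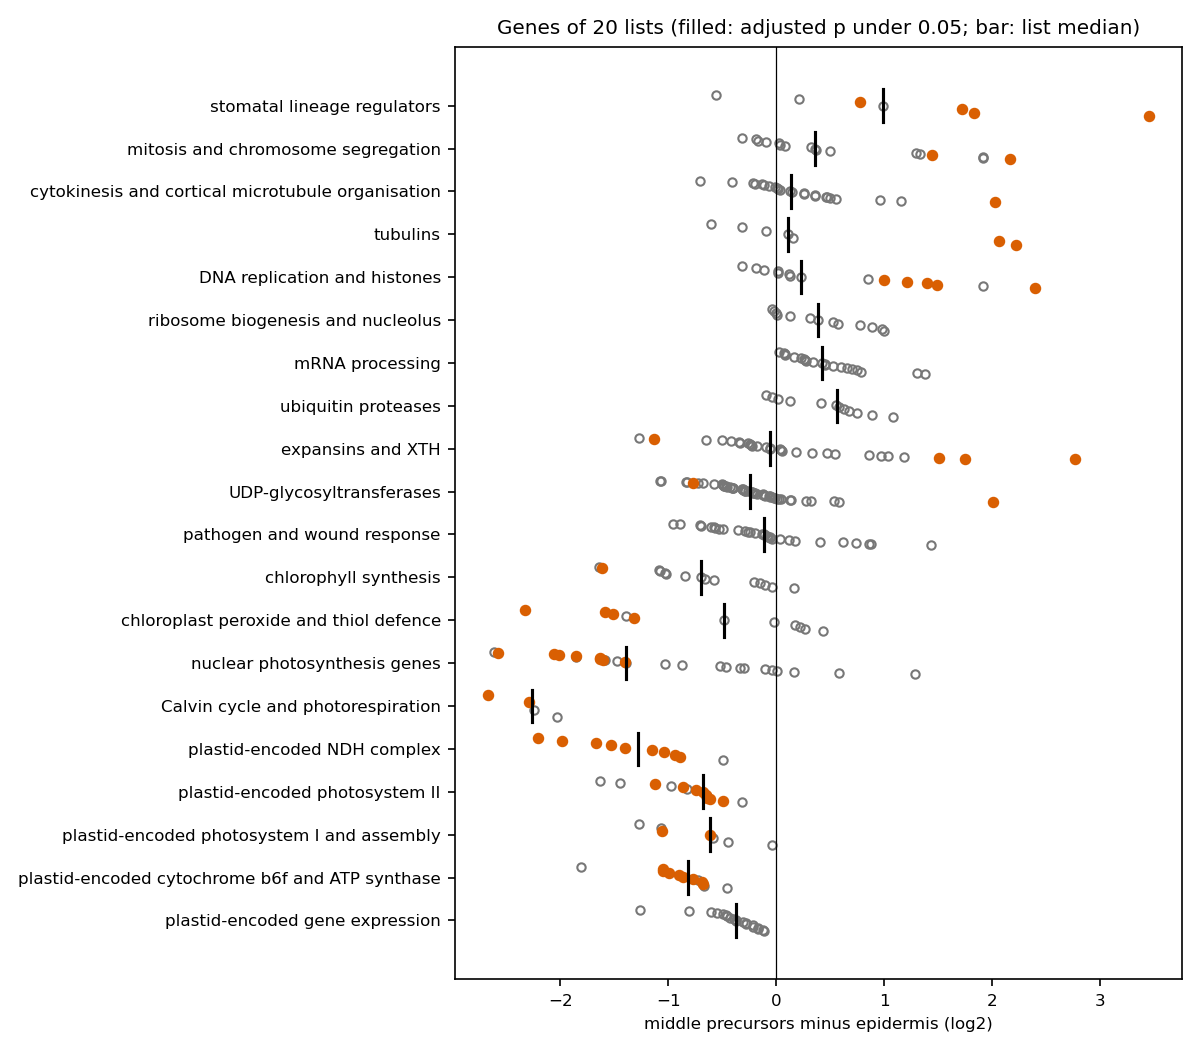
Differences, middle precursors minus epidermis (log2), for the measured genes of 20 lists. Filled points passed the limma test, open points did not, and bars are list medians. Every plastid-encoded gene lies left of 0, and the division lists hold their called genes at the right.

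Some of the greatest falls lay outside photosynthesis. ECS1, a cell wall protein, had 3.85, 3.75 and 4.84 in middle precursors, against 6.97, 6.92 and 7.08 in the epidermis, the greatest fall of a gene with a symbol (7.16-fold, limma adjusted p = 0.00242). ECS1 means in early precursors, late precursors and guard cells were 4.90, 2.63 and 4.20, none passing against middle precursors. HYH, a bZIP factor of light signalling related to HY5, had 4.57, 4.84 and 4.74 in middle precursors, against 7.25, 7.71 and 5.42 in the epidermis (4.23-fold, limma adjusted p = 0.0402). Epidermis replicate 3 stood below the other 2 epidermis arrays for HYH. THIC, which makes the pyrimidine of thiamine, had 3.06, 2.46 and 3.18 in middle precursors, against 3.66, 5.94 and 5.18 in the epidermis (4.08-fold, limma adjusted p = 0.0485), with epidermis arrays more than 2 log2 units apart. GSTL3, a lambda-class glutathione transferase, had 5.19, 4.85 and 5.62 in middle precursors, against 7.16, 7.35 and 7.24 in the epidermis (4.08-fold, limma adjusted p = 0.0416). The calls of HYH, THIC and GSTL3 were lost in 8, 7 and 7 of 16 alternative settings. Among 14 glutathione transferases 1 was higher and 2 were lower, beside 3.24% of all probe sets higher and 2.29% lower. GSTU25 rose 3.1-fold (limma adjusted p = 0.0274), a call lost in 7 of 16 settings including both alternative scalings. GSTU16 fell 2.01-fold (limma adjusted p = 0.0176), a call lost in 4 of 16 settings.

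Lists without a call came to 22 of 50, with 364 members in all, of which 65 had an unadjusted p under 0.05 in limma. Among them were mRNA processing, with all 21 differences positive as deposited (median 0.42) and 18 of 21 after either alternative scaling, and ubiquitin proteases (median 0.56). MADS-box factors, cytochrome P450 and sugar transport had medians of -0.18, -0.18 and -0.12 and were mostly near background. The pathogen and wound response list had 0 calls among 31 genes and a median of -0.11, with 11 at an unadjusted p under 0.05.

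Markers of other cells were checked on the few genes available. The 3 whole-epidermis markers had 0 calls in limma as deposited, 1 at an unadjusted p under 0.05, and a median of 0.28. After quantile normalization 1 of the 3 was called higher in middle precursors, and after cyclic loess also 1. As deposited, 1 had all middle arrays above all epidermis arrays (14.6% of all probe sets did). Another, AT3G23840, overlapped, with 6.55, 6.94 and 6.62 in middle precursors, against 6.75, 6.47 and 6.72 in the epidermis. The vascular markers IRX15 and IRX15-L, of xylan synthesis, had differences of -0.24 and -0.56, with 0 calls, adjusted or not. Of these 2, 1 was near background in both groups. Also 1 had all middle arrays below all epidermis arrays, as did 16.2% of all probe sets. The summed log2 level of IRX15 and IRX15-L was 5.43 to 5.92 in middle precursors, against 6.14 to 6.71 in the epidermis.

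Genes with a locus code only made up 296 of the rises and 177 of the falls, and 329 rises and 244 falls had no single gene listed. The greatest rise of all was a probe set with no gene listed, at 9.81, 9.28 and 9.77 in middle precursors, against 3.75, 5.32 and 3.58 in the epidermis (difference 5.40, 42.3-fold, limma adjusted p = 0.000102). Early precursors had a mean of 10.27 for it. Among locus codes, AT1G68500 had 9.29, 9.60 and 9.54 in middle precursors, against 5.11, 6.03 and 5.99 in the epidermis (13.6-fold, limma adjusted p = 8.61e-05), with late precursor and guard cell means of 8.38 and 8.69. AT2G16630 had 7.30, 7.70 and 7.58 in middle precursors, against 3.66, 4.83 and 3.90 in the epidermis (10.5-fold, limma adjusted p = 0.000724), again with high means in late precursors and guard cells (7.99 and 8.11). AT3G44050 and AT4G34500 rose at least 6.55-fold and 10.4-fold, the first with an early precursor mean of 6.81, above the middle mean of 5.39. The greatest falls by locus code were AT1G32220, at 3.44, 3.22 and 4.19 in middle precursors, against 6.14, 6.13 and 7.34 in the epidermis, and AT4G20860. AT4G20860 had 3.64, 3.93 and 3.68 in middle precursors, against 6.97, 7.08 and 5.63 in the epidermis. In early precursors, late precursors and guard cells the means were 3.20, 4.35 and 4.55 for AT1G32220 and 4.31, 6.75 and 5.95 for AT4G20860.

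The middle precursors were then set against each other stage. These comparisons share the middle arrays. Middle and early precursors differed in 1991 probe sets (9.50%), middle and late in 799 (3.81%), and middle and mature guard cells in 286 (1.36%). The order of these counts turned with the fit. With 2 groups in each fit they were 362 against early precursors, 1793 against late precursors and 472 against guard cells, and with array weights 770, 4256 and 1031. Middle precursors were higher than early precursors in 5.47% of probe sets and lower in 4.03%, higher than late precursors in 1.58% and lower in 2.23%, and higher than guard cells in 0.63% and lower in 0.735%. Against the same epidermis arrays, 8.91% of probe sets differed in early precursors (3.4% higher, 5.51% lower), 8.01% in late precursors (4.75% higher, 3.26% lower) and 3.91% in guard cells (2.29% higher, 1.62% lower). Of the 678 rises over the epidermis, 280 were also higher than in early precursors and 31 lower, 202 were higher and 15 lower than in late precursors, and 120 were higher and 5 lower than in guard cells. Of the 479 falls, 42 were also lower than in early precursors and 17 higher, 21 were lower and 1 higher than in late precursors, and 15 were lower and 0 higher than in guard cells. For the plastid NDH genes the median difference from the epidermis was -1.28 in middle precursors, -0.77 in early precursors, -1.41 in late precursors and -1.43 in guard cells, all 4 against the same epidermis arrays. For the 25 nuclear photosynthesis genes those medians were -1.39 in middle precursors, -1.07 in early precursors, -1.33 in late precursors and -1.003 in guard cells, and 0 of the 25 passed the limma test between middle precursors and early precursors, late precursors or guard cells, with 1 at an unadjusted p under 0.05 in each.

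Only 47 probe sets (0.224%) were higher in middle precursors than in each of the other 4 populations, and 1 (0.00477%) was lower. Of the 47, 22 were listed to a single gene, and none of the 22 carries a symbol in the reference list. AT5G23400 had 6.15, 5.20 and 7.02 in middle precursors, against 2.23, 2.13 and 2.43 in the epidermis, and means of 3.08, 3.15 and 2.53 in early precursors, late precursors and guard cells. It was at least 10.9-fold above the epidermis (limma adjusted p = 0.00016). AT3G53650, a code not found in the reference list, had 5.18, 5.86 and 5.82 in middle precursors, against 2.86, 2.71 and 2.73 in the epidermis (7.24-fold, limma adjusted p = 0.000196). AT1G68470 had 4.73, 4.86 and 4.20 in middle precursors, against 2.72, 2.74 and 2.36 in the epidermis, and means of 2.58, 2.62 and 2.58 in early precursors, late precursors and guard cells, all near background. AT3G05510 and AT5G47330 were 4.11-fold and 4.52-fold higher, on levels well above background in every population. AT5G57480 was the 1 gene lower in middle precursors than in all others, at 4.62, 4.80 and 3.63 in middle precursors, against 6.10, 6.81 and 5.80 in the epidermis (3.7-fold, limma adjusted p = 0.00331), with means of 6.07, 6.32 and 5.90 in the other 3 groups.

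**Figure D5:**
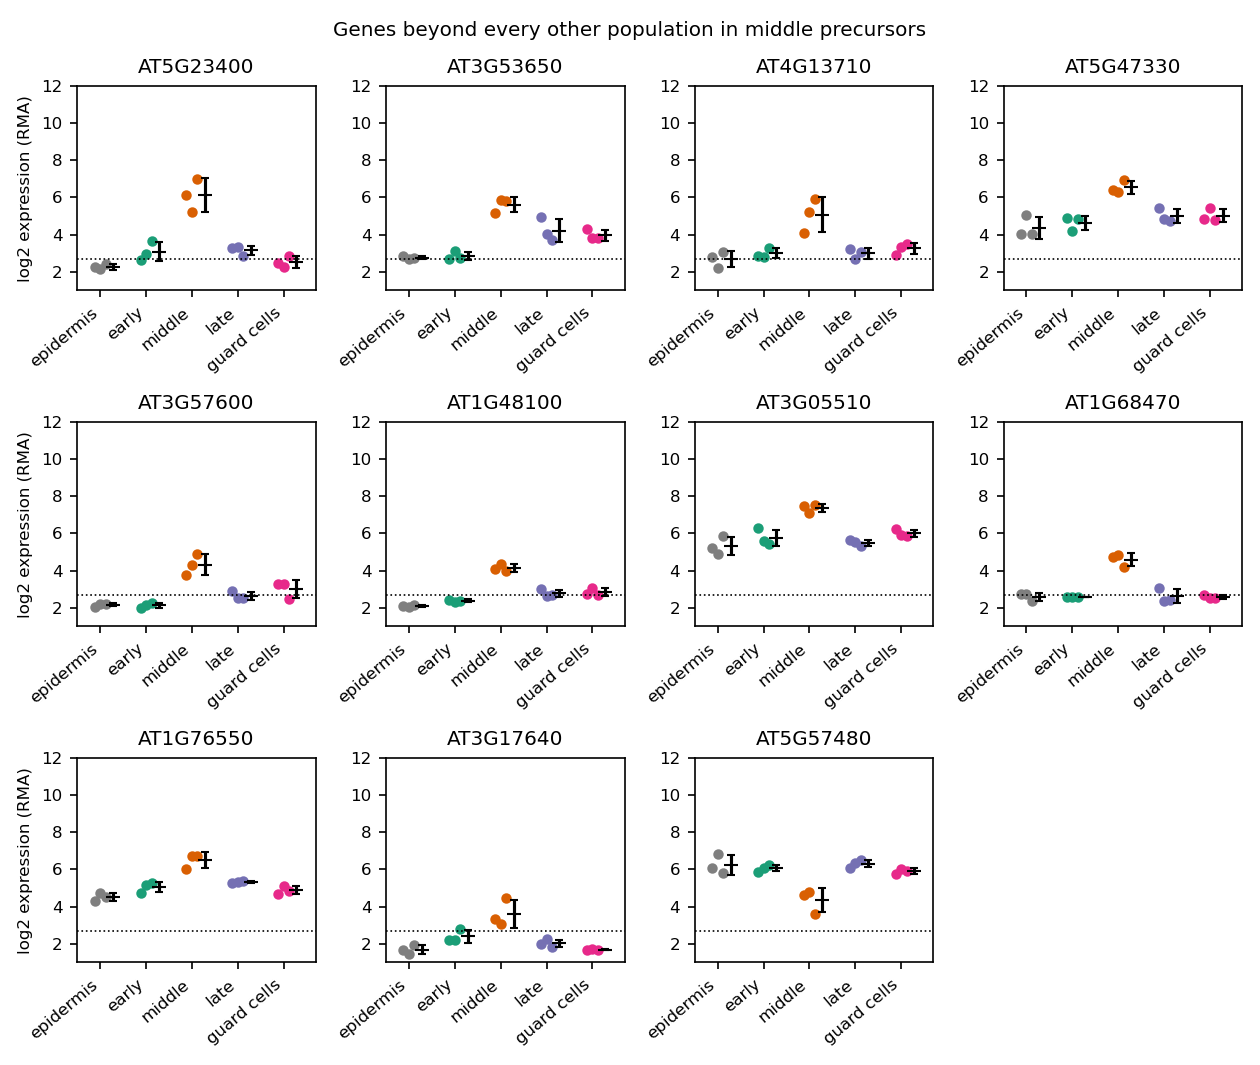
Log2 expression of the 10 genes with the greatest rises among those above every other population in middle precursors, and of AT5G57480, the 1 gene below every other. Points are arrays, bars mean ± SD (n = 3), and the dotted line is the near-background bound of 2.68.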

How the data were processed

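Expression was measured on Affymetrix ATH1 arrays, 1 per sorted sample. Per the labels' protocols, RNA was purified on RNeasy Micro columns, amplified with Ovation Pico WTA and labelled with the Encore biotin module. The deposited values are log2 expression per probe set, made by the authors with RMA in affy, per the submitters' processing notes; versions and genome build are not given in the sources used here. RMA normalizes arrays against each other, so a change in total RNA is not visible. The deposited arrays still had medians from 2.52 to 2.68, so their values were not on 1 distribution. All 15 arrays entered 1 limma 3.58.1 fit (R 4.3.3) with a mean per group and 10 residual degrees of freedom. Tests were two-sided, with Benjamini-Hochberg adjustment over 20956 probe sets and a threshold of 0.05. Control probe sets were not used here, so the background bound of 2.68 is the highest array median. Array number limits the precision.

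The probe annotation lists 12783 probe sets to 1 gene, 37 to several and none for 8136; of the 12783, 12720 were found in the RefSeq list (TAIR10.1) and 1538 have a symbol. A gene was read from its brightest probe set. Sequences and promoter motifs were not analysed here. Genes were named by rule: up to 15 rises and 15 falls with a symbol and 5 with a locus code, passing the test without overlap, up to 3 each way per list, up to 10 each way beyond every other group, and the lineage and guard cell genes. The members, lists and tests were chosen with earlier results of these data known, and the 50 lists were redrawn from reference symbols and synonyms after the annotation was read, so they are described by counts and medians alone. The code was tested on simulated data. Replicate numbers did not pair the arrays: deviations of same-numbered middle and epidermis arrays correlated at -0.02, -0.10 and 0.003. Alternatives covered the arrays in the fit, weights, scaling, a filter on low values, the prior, the replicate block, near-duplicate late arrays and single arrays left out.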

Additional observations from a re-analysis of the deposited data

Results flagged for a closer look

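FMA and GSTU25 moved against the epidermis in opposite called directions in middle and early precursors, and the difference between those stages was itself called. FMA was 3.45 above the epidermis in middle precursors and -0.89 from it in early precursors, a fitted difference of 4.34 between the stages (log2, limma adjusted p = 7.77e-07). Its early mean of 2.29 is near background, so the sizes of the early values are not exact. GSTU25 was 1.63 above the epidermis in middle precursors and -2.12 from it in early precursors, a difference of 3.75 (limma adjusted p = 0.000148). The GSTU25 call between middle precursors and epidermis was lost in 7 of 16 alternative settings, both alternative scalings included.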

How the results depend on the processing

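The 1157 calls between middle precursors and epidermis became 2496 without the early precursor arrays, 2286 with array weights and 2467 with 1 weight per group. Leaving out 1 array gave 502 to 1077. Quantile normalization put the share of rises among calls at 49.2% and cyclic loess at 44.3%, against 58.6%. Against early precursors (1991), the count was 362 in a fit of those 2 groups alone, 770 when arrays were weighted, 497 when groups were weighted and 1140 after cyclic loess, and 703 to 1121 with a middle array left out. Against late precursors (799) it was 1793, 4256 and 2164 under the first 3 of these settings, 327 with late replicates 2 and 3 averaged, and 366 to 569 with a middle array left out. Against guard cells (286) it was 472, 1031 and 856 under those 3 settings and 107 to 233 with a middle array left out. Filtering low probe sets split the calls against early precursors 83.2% to rises, against 57.6%. With the replicate block, 1120 probe sets were called between middle precursors and epidermis; the numbers share no known pairing, and 0 of the 3 middle arrays deviated most like the epidermis array of its own number. Of 89 named genes called, 42 kept the call in each alternative that tested them, 0 changed sign, and the other 47 lost it in at least 1. The causes of these shifts were not tested, and the settings that left arrays out also had fewer arrays. Signal near background limited both groups for 10097 probe sets.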
